A study of Mus musculus with 15 samples.

Results

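The striated muscle myosin heavy chains are the motor proteins of the thick filament in skeletal and cardiac muscle, and 8 genes of the family were described here. They were taken by name from the deposited table of 56980 genes: Myh4, Myh1, Myh2, Myh3, Myh8, Myh7, Myh7b and Myh6. The libraries came from DBA/2J-mdx mice, in which dystrophin is missing and which model Duchenne muscular dystrophy, so every group carried the mutation and no healthy control was sequenced. Tibialis anterior (TA) muscle was collected at 5 months of age from 4 male mice given the senolytic pair dasatinib and quercetin (D + Q) by gavage 2 times a week from 3 months, and from 4 mice given vehicle on the same schedule, 2 of them male and 2 female. Hearts were collected at 16 months from 3 mice given D + Q 2 times a week from 12 months, 2 labelled female and 1 labelled male, and from 4 vehicle-treated mice, 2 of each sex. Each library came from 1 mouse. Within each tissue the comparison asked how senolytic treatment shifted the myosin make-up, and across tissues it asked how skeletal and cardiac muscle differed.

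Muscle fibres are typed by the heavy chain they carry, because the chain sets how fast the motor splits ATP and so how fast the fibre shortens. In the mouse limb, Myh4 marks the fastest IIB fibres, Myh1 the IIX fibres, Myh2 the IIA fibres, and Myh7 the slow type I fibres, while Myh3 (embryonic) and Myh8 (perinatal) are carried by developing fibres and return in fibres that regenerate. In the heart, Myh6 encodes the fast alpha chain and Myh7 the slow beta chain, the adult mouse ventricle carries mostly alpha, and a rise of beta over alpha is a widely used sign of cardiac stress. Myh7b is an older relative that is present at low level in heart and slow muscle.

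The members lie in 3 places of GRCm39. Myh3, Myh2, Myh1, Myh4 and Myh8 follow each other on the forward strand of chromosome 11, from the start of Myh3 at 66969126 to the end of Myh8 at 67199462. Myh6 (55179367 to 55205887) and Myh7 (55208141 to 55232084) are neighbours on the reverse strand of chromosome 14, and Myh7b (155453096 to 155476234) is on the forward strand of chromosome 2. Their coding sequences are close in length, from 5805 bases in Myh7 to 5826 in Myh1 and Myh2, and close in sequence. Nucleotide identity over the aligned coding sequence was 90.2% between Myh4 and Myh1, 91.1% between Myh1 and Myh2, 88.3% between Myh4 and Myh2 and 91.7% between Myh6 and Myh7, and it fell to 71.3% between Myh1 and Myh7b.

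That closeness bears on every value, since reads of 51 bases were split between the members by Salmon's model. Of the 51-base windows of each coding sequence, 18.8% in Myh4, 26.7% in Myh1, 27.3% in Myh2 and 20.6% in Myh8 also occurred, base for base, in a transcript of another member, against 3.57% in Myh3 and 0% in Myh7b. Myh6 and Myh7 shared 1347 windows, 23.4% of either. Where the 3 adult fast genes differ most, each read names its gene. The window of read length in which even the closest pair of them differs most lies in exon 20 of Myh4 and exon 21 of Myh1 and Myh2 and is shown to make that visible, with the 17 positions that differ among the 3 in capitals.
Myh4, chr11:67141702-67141752, forward strand: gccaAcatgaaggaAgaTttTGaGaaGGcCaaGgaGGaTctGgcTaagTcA
Myh1, chr11:67102279-67102329, forward strand: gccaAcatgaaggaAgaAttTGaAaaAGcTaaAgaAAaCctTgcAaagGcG
Myh2, chr11:67077435-67077485, forward strand: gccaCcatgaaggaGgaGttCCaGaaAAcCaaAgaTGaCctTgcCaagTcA
Myh4 differed from Myh1 and from Myh2 at 12 of these 51 bases, and Myh1 from Myh2 at 13. In some other stretches the same 3 genes could not be told apart. This run from exon 2 of Myh4 and exon 3 of Myh1 and Myh2 is identical in all 3.
Myh4, chr11:67131836-67131886, forward strand: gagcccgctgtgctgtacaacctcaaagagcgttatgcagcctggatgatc
For the cardiac pair, the most different window lies in exon 11 of Myh6 and exon 12 of Myh7 and holds 12 differing positions, again in capitals.
Myh6, chr14:55198666-55198716, reverse strand: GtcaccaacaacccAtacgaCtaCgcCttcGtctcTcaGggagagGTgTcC
Myh7, chr14:55227477-55227527, reverse strand: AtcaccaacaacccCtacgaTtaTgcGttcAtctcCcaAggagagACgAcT
The sequences are of the canonical coding transcripts of GENCODE M39, read 5′ to 3′ on the coding strand. A member far below a close relative in the same library therefore holds an unknown part of that relative's reads, and small values are given with that limit.

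Each of the 3 genes transcribed in heart also hosts a microRNA in an intron on its own strand. The hairpin of miR-208a lies between exons 29 and 30 of Myh6, that of miR-208b between exons 31 and 32 of Myh7, and that of miR-499 between exons 19 and 20 of Myh7b. The mature strands are shown because they share most of their seed (bases 2 to 8, in capitals), the part that pairs with target mRNAs. The sequences are from RefSeq (GRCm38.p6).
miR-208a-3p: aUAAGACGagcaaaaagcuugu
miR-208b-3p: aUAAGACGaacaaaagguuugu
miR-499-5p: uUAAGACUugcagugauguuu
The seeds of miR-208a-3p and miR-208b-3p were identical. The libraries were made from mRNA, and the microRNA genes were listed at 0 TPM in every library except Mir208a in D + Q heart replicate 2 (5.48 TPM), so host and microRNA could not be compared.

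Values are TPM (transcripts scaled to a fixed total), a level corrected for transcript length and summing to 1000000 in each library. They keep no read depth, and what 1 read was worth is unknown. Libraries of a group correlated between 0.977 and 0.991 on the log scale. Sex-linked transcripts followed the label in 14 of 15 libraries. The exception was D + Q heart replicate 3, the library labelled male, where Xist stood at 47.2 TPM and no Y-linked gene tested passed 0.0279 TPM, so all 3 D + Q hearts had Xist whereas 2 of the 4 vehicle hearts had. The tissue labels held for the members, with Myh6 under 2 TPM in every TA and at least 4002 TPM in every heart (the plot of member levels by library).

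**Figure D1:**
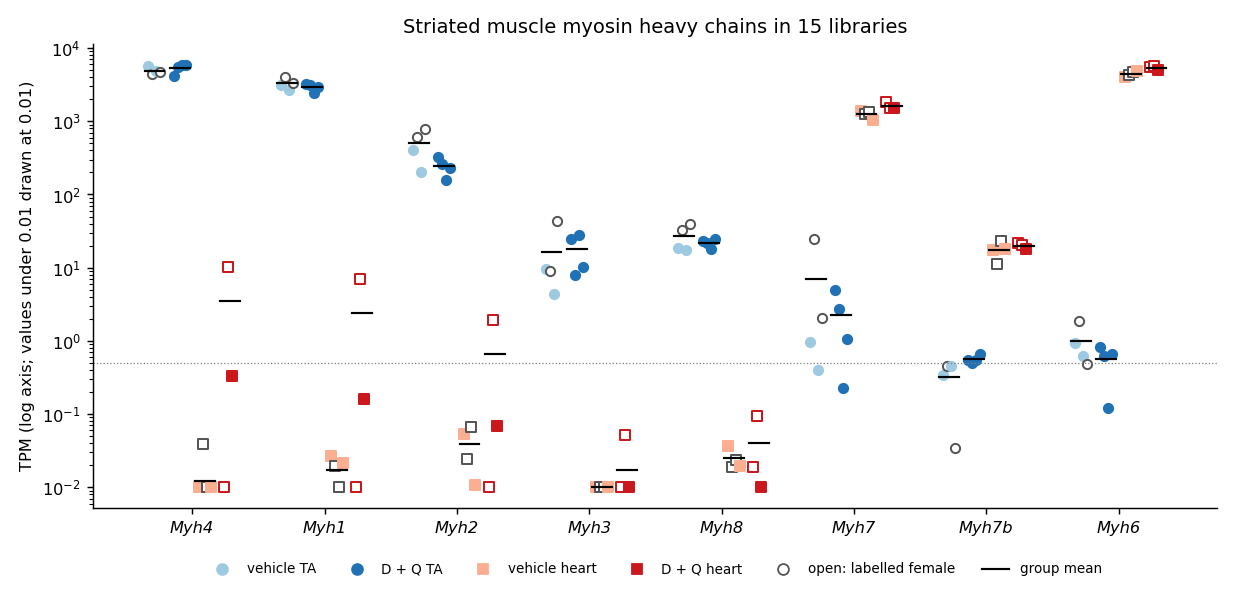
TPM of the 8 members in each of the 15 libraries on a log axis, with values under 0.01 drawn at 0.01. Circles are TA and squares heart, pale colours vehicle and dark colours D + Q, filled points labelled male and open points labelled female; black bars are group means and the dotted line is 0.5 TPM, the filter on low values. Myh4 and Myh1 are the highest members in TA and Myh6 and Myh7 in heart, and the open square above the other hearts for Myh4, Myh1 and Myh2 is D + Q heart replicate 2.

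Myh4 and Myh1, the IIB and IIX chains, made up nearly all of the family in TA, and D + Q moved neither beyond the spread between mice. Myh4 was 4190.3, 5529, 5855 and 5829 TPM in muscles 1 to 4 given D + Q and 5678, 4462, 4857 and 4751 TPM in vehicle replicates 1 to 4. Myh1 was 3219, 3133, 2409.6 and 2902 TPM under D + Q and 3142, 3979, 2681 and 3379 TPM under vehicle. The groups overlapped for each. As a share of the summed TPM of the 8 members, Myh4 was 62.4% ± 6.46 (SD, n = 4) under D + Q and 56.4% ± 6.60 (n = 4) under vehicle, and Myh1 was 34.3% ± 5.43 and 37.4% ± 4.44. The difference in share was 5.97 percentage points for Myh4 (exact permutation test over 70 splits of the mice, two-sided, p = 0.2) and -3.15 points for Myh1 (p = 0.4). The smallest p that 4 against 4 mice allow is 0.0286, and 8 shares were tested in each comparison without adjustment. The order was the same in both groups: Myh4 lay above Myh1, Myh1 above Myh2 and Myh2 above Myh8 with no overlap of their ranges. The sum of the 8 members was 8552 ± 566 TPM under D + Q and 8786 ± 687 TPM under vehicle (exact permutation test, p = 0.543).

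**Figure D2:**
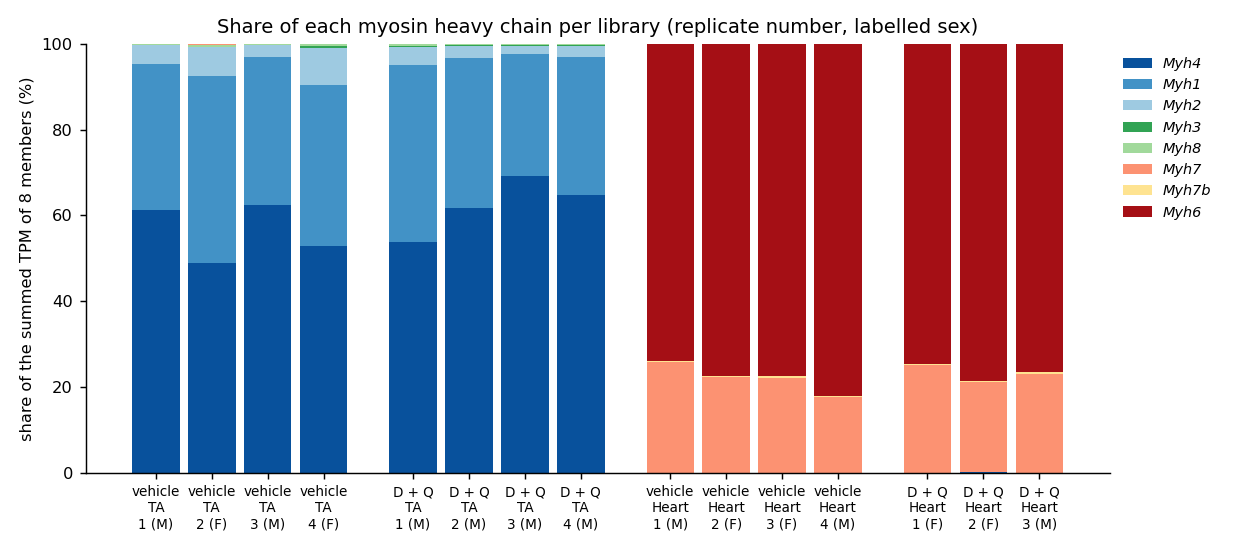
Share of each member in the summed TPM of the 8 members, in percent, for every library, with the replicate number and labelled sex (M or F) under each bar. Blue tones fill the TA bars (Myh4, Myh1, Myh2) and red tones the heart bars (Myh6, Myh7); the light blue Myh2 band is widest in the 2 female vehicle TA libraries, at 6.70% and 8.68%.

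Myh2, the IIA chain, had the smallest unadjusted p of the members in the limma fit of TA, and its groups overlapped. It was 321, 263, 156 and 229.6 TPM in the 4 D + Q muscles and 408, 611, 206 and 781 TPM in the vehicle muscles, so vehicle replicate 3 lay inside the D + Q range. The 2 highest libraries, vehicle replicates 2 and 4, were the 2 female ones. Its share was 2.86% ± 0.957 (n = 4) under D + Q and 5.61% ± 2.64 (n = 4) under vehicle, a difference of -2.75 points (exact permutation test, p = 0.114). Among males alone the shares were 2.86% (4 D + Q) and 3.53% (2 vehicle), a difference of -0.665 points (exact permutation test, p = 0.533). Without vehicle replicate 3, 1 of the 2 vehicle males, the difference was -3.74 points (exact permutation test over the other 7 mice, p = 0.0286). Over all 8 omissions of 1 mouse, p by this test ran from 0.0286 to 0.257. As a log ratio to the geometric mean of the 8 members the difference was -0.76 (exact permutation test, p = 0.0286). That mean takes in Myh7b and Myh6, at most 0.672 and 1.89 TPM in TA. The D + Q muscles were all male, so treatment and sex can be told apart only by the 2 vehicle males. In the limma fit across 16298 genes, with 1 surrogate variable, the log2 fold change of Myh2 was -0.90 (SE 0.39, unadjusted p = 0.0405, adjusted p = 0.999), and with labelled sex in place of the surrogate variable it was -0.30. Without D + Q replicate 3 it was -0.15 and without vehicle replicate 3 it was -1.48.

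No member passed the test in TA (an adjusted p under 0.05 together with a log2 fold change beyond 0.5 either way), and neither did any other gene: 0% of 16298 genes were called in either direction by limma, with 104 (0.638%) higher and 384 (2.36%) lower at an unadjusted p under 0.05. The log2 fold change was 0.16 (SE 0.14) for Myh4, -0.18 (SE 0.16) for Myh1, 0.59 (SE 0.61) for Myh3, -0.20 (SE 0.26) for Myh8, -0.62 (SE 0.98) for Myh7, 0.36 (SE 0.24) for Myh7b and -0.56 (SE 0.33) for Myh6, all with an adjusted p of 0.999. The standard errors differed widely among members: those of Myh4 and Myh1 were the smallest and that of Myh7 the largest. The median over all genes tested was -0.07.

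**Figure D3:**
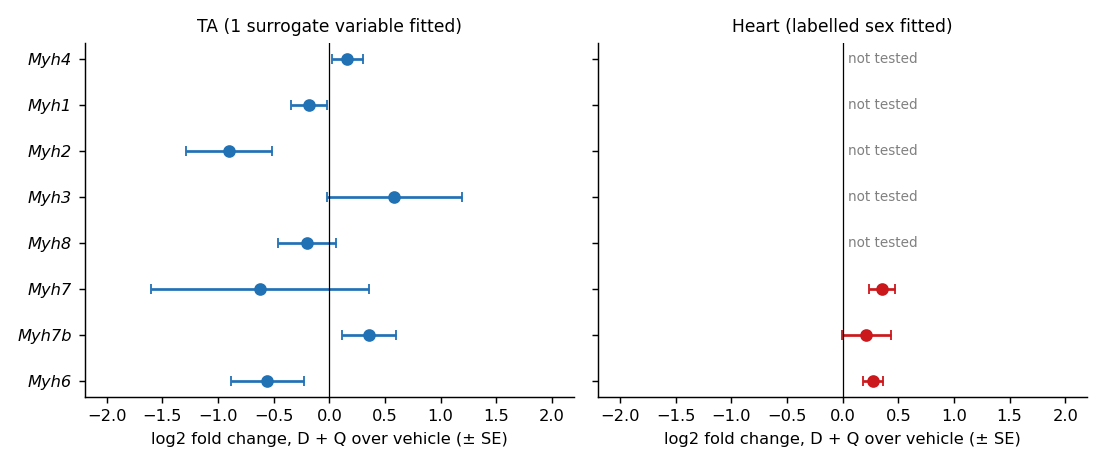
Log2 fold change of D + Q over vehicle for each member in TA (left) and heart (right), on the log2(TPM + 0.5) scale; points are limma estimates and bars 1 standard error. In TA the estimates lie on either side of 0, with the widest bar for Myh7; in heart only Myh7, Myh7b and Myh6 passed the filter on low values, and all 3 estimates are above 0, as were 49.5% of those of all genes.

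The developmental chains Myh3 and Myh8 were measurable in every dystrophic TA, at 4.42 to 42.9 TPM,, below the adult fast chains. Myh3 was 24.9, 8.06, 28.1 and 10.2 TPM in the D + Q muscles and 9.58, 9.06, 4.42 and 42.9 TPM in the vehicle muscles. The highest value was a vehicle muscle, female replicate 4, and the other 3 vehicle muscles lay below or within the D + Q range. Myh8 was 23.3, 21.6, 17.7 and 24.7 TPM under D + Q and 18.8, 32.6, 17.5 and 39.1 TPM under vehicle, and its 2 highest libraries were again the female ones. The same 2 libraries had the most Myh2, with which Myh8 shares 12.2% of its 51-base windows. The part of Myh2 reads in the Myh8 values was not tested. Together Myh3 and Myh8 made up 0.470% ± 0.133 of the family under D + Q and 0.489% ± 0.292 under vehicle (exact permutation test, n = 4 and 4, p = 0.914). Among males the order of these means was reversed, with 0.294% in the 2 vehicle muscles and no overlap of the groups. The difference was 0.176 points (exact permutation test over 15 splits, n = 4 and 2, p = 0.133).

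The chains of slow and cardiac muscle were near the bottom of the range in TA. Myh7 was 5.02, 2.75, 0.225 and 1.08 TPM in the D + Q muscles and 0.977, 24.5, 0.402 and 2.05 TPM in the vehicle muscles. Vehicle replicate 2 stood apart from the other 7 TA libraries, and it also had the highest TPM of the slow light chains Myl2 (45.8) and Myl3 (69.1). The summed TPM of the 12 slow fibre genes was highest in vehicle replicate 4, at 1790.5 TPM against 1638 TPM in vehicle replicate 2. Without vehicle replicate 2 the estimate of Myh7 changed sign, to 0.35 on the log2 scale. Myh6 was 0.123 to 0.817 TPM under D + Q and 0.483 to 1.89 TPM under vehicle. Myh7b was the only member whose groups did not overlap in TA, with 0.543, 0.504, 0.545 and 0.672 TPM under D + Q and 0.346, 0.456, 0.457 and 0.034 TPM under vehicle (exact permutation test, n = 4 and 4, p = 0.0286). All 8 values are under 1 TPM, at the filter of 0.5 TPM, and 0.264% of genes were higher and 1.25% lower with no overlap in this comparison.

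The other muscle genes of the fixed lists gave no call in TA either. Of 12 fast fibre genes 10 had a positive log2 fold change, beside 33.6% of all genes, with a median of 0.07. The smallest unadjusted p values there were those of Mybpc2 (log2 fold change 0.23, SE 0.16), which encodes the fast myosin binding protein C, Myoz1 (0.26, SE 0.22) and Mylk2 (0.20, SE 0.16). Of 12 slow fibre genes 9 had a negative value and 3 a positive one, with a median of -0.29 beside -0.07 over all genes. Most genes were negative in this fit, as 33.6% were positive. Myl3, the slow ventricular essential light chain, had -1.57 (SE 0.43, unadjusted p = 0.00416), with 24.3, 12.3, 5.63 and 15.3 TPM under D + Q and 37.2, 69.1, 18.6 and 30.2 TPM under vehicle, so the groups overlapped at vehicle replicate 3. The 12 regeneration genes divided evenly, 6 positive and 6 negative, with Myod1, a myogenic transcription factor, at 0.27. Of 23 regulators of fibre type 9 were positive and 14 negative, with Maf, a transcription factor that acts on the IIB gene, at 0.25 (SE 0.14). Of 13 tested genes of the thick filament and of myosin folding 8 were positive, with a median of 0.04. Of 6 listed class II myosin heavy chains other than the members, 5 were tested and all 5 were negative, with a median of -0.21.

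In heart, the alpha and beta chains were both higher in every D + Q library than in any vehicle library, and neither passed the adjusted threshold. Myh7 was 1849, 1519.8 and 1507 TPM in hearts 1 to 3 given D + Q and 1400.4, 1239, 1331 and 1049 TPM in vehicle replicates 1 to 4. Its log2 fold change was 0.36 (SE 0.12, 1.28-fold, unadjusted p = 0.0176, adjusted p = 0.183, limma with labelled sex). Myh6 was 5522, 5741 and 5002 TPM under D + Q and 4002, 4276, 4668 and 4877 TPM under vehicle, a log2 fold change of 0.27 (SE 0.09, 1.21-fold, unadjusted p = 0.0206, adjusted p = 0.195). Of 16132 genes tested, 9.63% were higher in D + Q hearts with no overlap of the groups and 5.57% lower, while 0.105% were called higher and 0.211% lower. In hearts with Xist alone (3 D + Q and 2 vehicle) the log2 fold changes were 0.33 for Myh7 and 0.28 for Myh6, and without the library labelled male they were 0.38 and 0.33.

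The shares of the 2 chains overlapped between groups. Myh7 was 25.0%, 20.8% and 23.1% of the 8 members in the D + Q hearts and 25.8%, 22.4%, 22.1% and 17.7% in the vehicle hearts. The means were 23.0% ± 2.10 (n = 3) and 22.0% ± 3.36 (n = 4), a difference of 0.969 points (exact permutation test over 35 splits, two-sided, p = 0.686). Myh6 was 76.7% ± 1.97 and 77.7% ± 3.36 (difference -1.04 points, exact permutation test, n = 3 and 4, p = 0.686). As a share of Myh6 and Myh7 alone, the beta chain was 23.1% and 22.1% (exact permutation test, n = 3 and 4, p = 0.686). Without vehicle replicate 4, the library with the lowest beta share, the difference in Myh7 share was -0.480 points. The sum of the 8 members was 7392, 7300.1 and 6527 TPM in the D + Q hearts and 5420.2, 5526, 6022 and 5944 TPM in the vehicle hearts, with no overlap (exact permutation test, n = 3 and 4, p = 0.0286, the smallest this design allows).

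Summed markers of atrial muscle, ventricular muscle and red cells also differed between D + Q and vehicle hearts. The 10 atrial muscle markers summed to 423 to 470.3 TPM in the D + Q hearts and 914 to 4425 TPM in the vehicle hearts, 7 of 10 were lower with no overlap, and 5 were called lower by limma. Myl7, the atrial regulatory light chain, was 3.99, 4.54 and 3.46 TPM under D + Q and 94.1, 730.1, 541 and 283 TPM under vehicle (log2 fold change -6.38, adjusted p = 0.00904), and Myl4, the atrial essential light chain, had -6.12 (adjusted p = 0.00668). Sln (-5.46), Mybphl (-5.02) and Dkk3 (-2.43) were the other 3 called. Without vehicle replicate 2, the heart with the most atrial transcripts, 0 of the 10 were called and 8 were lower with no overlap, without D + Q replicate 2 1 was called, and without the filter on low values 0 were. The 6 ventricular markers summed to 15766 to 16398 TPM under D + Q and 11290.1 to 13625 TPM under vehicle, 3 of 6 were higher with no overlap and none was called, with Pln, the regulator of the calcium pump, at 0.36 (adjusted p = 0.0812). The 5 red cell markers summed to 26.8 to 122 TPM and 346 to 1231 TPM, all 5 lower with no overlap and none called. Of 6 smooth muscle and fibroblast markers 4 were lower with no overlap. Over all genes tested, 5.57% were lower and 9.63% higher with no overlap, and 0.211% were called lower and 0.105% higher. TPM has a fixed total, and fewer cells of a type and less RNA per cell cannot be told apart. The part of these transcripts in the levels of Myh6 and Myh7 was not tested.

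**Figure D4:**
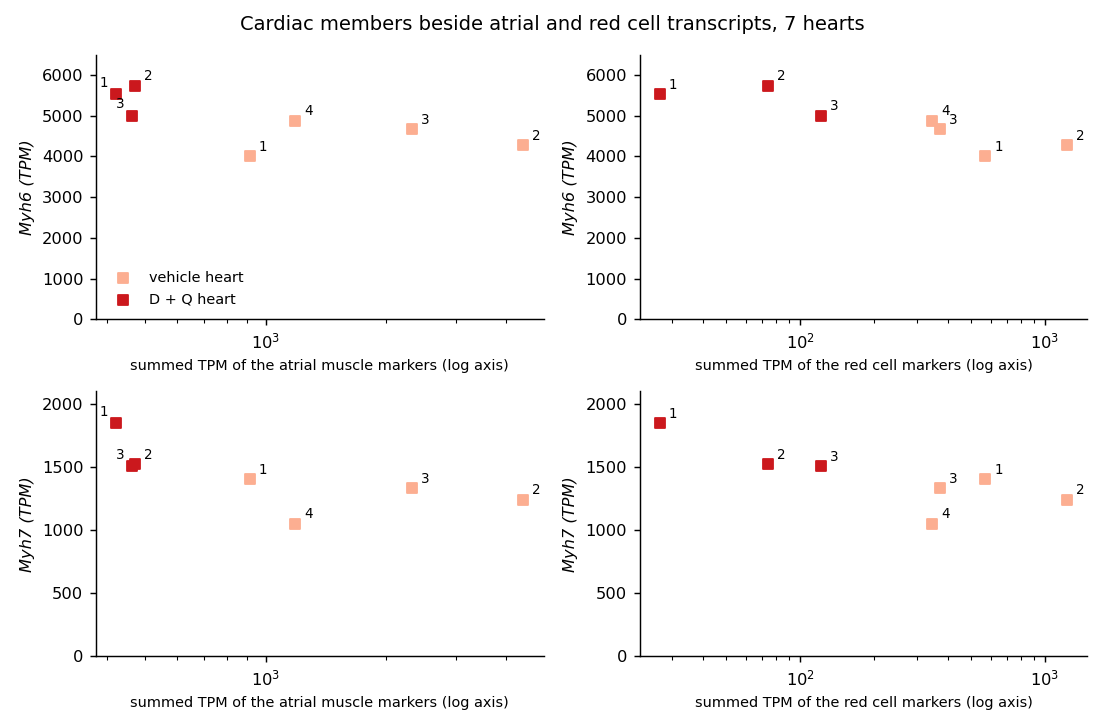
TPM of Myh6 (top) and Myh7 (bottom) in each heart against the summed TPM of 10 atrial muscle markers (left) or 5 red cell markers (right), both on log axes; the vertical axes start at 0 and numbers are replicates. The 3 D + Q hearts (dark red) lie above the 4 vehicle hearts (pale) for each chain and to the left of them for each marker sum, with atrial sums of at most 470.3 TPM against at least 914 TPM.

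Myh7b, which hosts miR-499, came next in heart and overlapped between groups, with 21.6, 20.3 and 17.9 TPM under D + Q and 17.5, 11.3, 23.3 and 18.1 TPM under vehicle (log2 fold change 0.21, SE 0.22, adjusted p = 0.667). Its share was 0.281% and 0.305% of the family. The ranges of Myh6, Myh7 and Myh7b did not overlap with each other in either group of hearts.

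The skeletal members were near 0 in heart except in 1 library. Myh4 stood at 0.010, 10.2 and 0.330 TPM in hearts 1 to 3 given D + Q. In vehicle hearts 1 to 4 it was 0.004, 0.040, 0 and 0.005 TPM. Myh1 was 7.03 TPM and Myh2 1.90 TPM in D + Q replicate 2, against at most 0.159 and 0.070 TPM in the other 6 hearts. The embryonic Myh3 was at most 0.051 TPM and the perinatal Myh8 at most 0.094 TPM, and those highest values were of the same library. None of these 5 genes passed the filter on low values in heart, so none entered the limma fit there. By exact permutation of the 7 hearts the difference in TPM had p = 0.0571 for Myh4, 0.114 for Myh1, 0.257 for Myh2, 0.429 for Myh3 and 0.8 for Myh8, and the groups overlapped for each. The 12 fast fibre genes were all highest of the 7 hearts in that library too, at 0.117% to 0.861% of their median in TA (median 0.233%), and Myh4 stood at 0.197% of its TA median. They include Atp2a1, the fast calcium pump, Tnnt3 and Tnni2, fast troponin subunits, with Tnnt3 at 21.5 TPM and Tnni2 at 9.28 TPM. For Mybpc2 and Casq1 the next heart came close. Mybpc2, which gives the 0.861%, was 6.81 TPM against at most 6.34 TPM in the other hearts. Casq1 was 8.96 TPM against at most 8.02 TPM. In that library Myh6 was the highest of the 3 D + Q hearts and Myh7 lay between the other two. Without it the log2 fold changes of Myh7 and Myh6 were 0.42 and 0.24. Where the skeletal transcripts of this library came from was not tested.

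**Figure D5:**
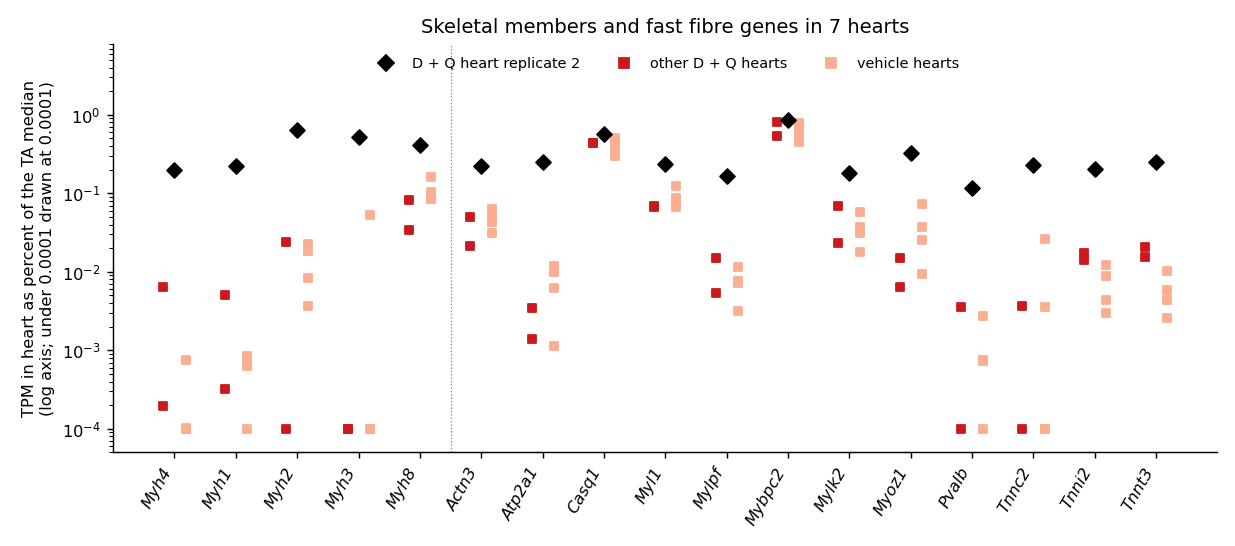
TPM of the 5 skeletal members (left of the dotted line) and the 12 fast fibre genes (right) in each of 7 hearts, as a percentage of the gene's median in 8 TA libraries, on a log axis with values under 0.0001 drawn at 0.0001. Black diamonds are D + Q heart replicate 2, dark red squares the other D + Q hearts and pale squares the vehicle hearts. The diamond is the highest point for all 17 genes, at 0.117% to 0.861%, and lies close to the next heart for Casq1 and Mybpc2.

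Among the other sarcomere genes of the heart, most had positive estimates, as Myh6 and Myh7 did, and none was called higher. Of all genes tested, 49.5% were positive, 9.63% higher with no overlap and 5.57% lower with no overlap. Of 10 slow fibre genes tested, which include the ventricular chains, 8 were positive and 7 higher with no overlap, with a median of 0.20. Atp2a2 is also on the list of cardiac stress genes, and Myl2 and Myl3 are ventricular markers too, so the lists are not independent. Csrp3, a Z-disc protein, had a log2 fold change of 0.31 (adjusted p = 0.098), Atp2a2, the cardiac calcium pump, 0.36 (adjusted p = 0.126) and Myl2, the ventricular regulatory light chain, 0.35 (adjusted p = 0.144). Of 13 genes of the thick filament and of myosin folding 12 were positive and 6 higher with no overlap, among them the ubiquitin ligases Trim63 (0.27, adjusted p = 0.111) and Trim54 (0.25). Among 20 regulators of fibre type 4 were higher and 3 lower with no overlap, with Ppargc1a, a coactivator of mitochondrial genes, at 0.89 (adjusted p = 0.0908), Hdac4, a repressor of MEF2, at -0.67 (adjusted p = 0.103) and Prox1 at 0.25. Of 8 cardiac stress genes 6 were negative and 2 positive, and 2 were lower and 2 higher with no overlap. The positive ones were Pln and Atp2a2, whose values are given above. Among the negative ones were Nppa, which is also an atrial marker, at -1.61 (adjusted p = 0.126) and Ccn2 at -0.90 (adjusted p = 0.0934). Of 4 regeneration genes tested, Myl4 was called lower, and Actc1 and Tnnt2, which the heart itself carries, had 0.32 (adjusted p = 0.098) and 0.24 (adjusted p = 0.187). Of 8 fast fibre genes tested all were positive, with a median of 0.57, and each was highest in D + Q replicate 2. Without that library 5 of 8 were positive and the median was 0.09. Tnnt3 and Tnni2 had no overlap with or without it, and Tnni2 passed the filter with 1 vehicle heart above 0.5 TPM.

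Across tissues all 8 members were called by limma at either treatment. Among vehicle libraries Myh4 (log2 difference 13.23), Myh1 (12.62), Myh2 (9.70), Myh8 (5.63) and Myh3 (4.58) were higher in TA, and Myh6 (-11.63), Myh7 (-8.68) and Myh7b (-4.45) were higher in heart, with adjusted p between 2.63e-12 and 5.13e-05. In this comparison 24.1% of 16893 genes were called higher in TA and 14.8% lower, 4073 and 2499 genes. Scaling by median ratios took the median difference over all genes from 0.16 to 0.00036 and gave 2952 and 3326. Among D + Q libraries the direction was the same for all 8, with differences from 11.64 for Myh4 to -12.37 for Myh6 and adjusted p of at most 3.72e-05, beside 21.2% of 16381 genes called higher in TA and 15.6% lower. Where a member was near 0 in the other tissue, its difference is set by the constant of 0.5 TPM and is no measure of fold. TA and heart differed in age, with 5 and 16 months, and in length of treatment, so tissue and age cannot be told apart. The D + Q TA mice were all male and every D + Q heart had Xist. At D + Q, tissue and sex therefore cannot be told apart either, and sex was not fitted there. Without D + Q heart replicate 2 the difference of Myh4 at D + Q was 12.99.

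The 12 fast fibre genes were all called higher in vehicle TA, with the smallest p for Tnnt3 (13.10), Actn3 (10.26) and Tnni2 (12.42), and of the 12 slow fibre genes 4 were called higher in TA and 7 in heart. Mybpc1 (10.78), the slow skeletal myosin binding protein C, was among the former, and Atp2a2 (-5.54) and Tnnc1 (-7.42) among the latter. Of 23 regulators of fibre type 17 were called higher in vehicle TA, with Tbx15 at 6.80, and 1 lower, Prox1 (-4.35), a factor of slow muscle and heart. The long non-coding Myhas, which overlaps the end of Myh1 and the start of Myh4 on the other strand, was 3.21 ± 0.646 TPM in D + Q TA and 3.44 ± 1.04 TPM in vehicle TA (n = 4 each) and 0 TPM in every heart. Whether the counting used strand is not given in the sources used here, so reads of the overlapping stretches cannot be assigned to either gene.

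The effect of D + Q was also compared between tissues by an interaction term over all 15 libraries and 17868 genes, and no member was called, beside 0.0448% of genes called higher and 0.0168% lower. Myh2 had the smallest unadjusted p, with a difference of -1.64 (SE 0.66, adjusted p = 0.843 by limma), and it rests on heart values under 2 TPM. Myh6 had -0.74 (SE 0.37, adjusted p = 0.897), with TA values under 2 TPM, and Myh7 -0.89 (SE 1.17, adjusted p = 0.978). Sex was not fitted in this comparison. The D + Q TA mice were all male and every D + Q heart had Xist, while both vehicle groups held both sexes. Age and length of treatment also differed between TA and heart. These differences therefore cannot be assigned to the tissue alone.

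The genes whose log2 levels ran closest to each member were listed by Pearson's r over the 8 TA or 7 heart libraries, as a description with no test, since mice of both treatments and sexes enter it. For Myh4 in TA they were Dnajc12 (0.944), Ucp3 (0.943), a mitochondrial carrier of muscle, and Psmd12 (0.933). For Myh1 they were Sh2d4a (0.990), Ldhb (0.981), a lactate dehydrogenase of oxidative tissue, and Tmem131 (0.975). For Myh2 they were Prrx1 (0.978), Cacna1c (0.976) and Sap25 (0.974). For Myh3 they were Tnnt2 (0.958), a listed regeneration gene, Ptprd (0.950) and Myl6b (0.948), a listed slow fibre gene. For Myh8 they were U2surp (0.980), Malat1 (0.974) and Greb1 (0.972). In heart, Myh7 ran with Ppp1r3c (0.994), Msantd3 (0.973) and Tfg (0.968), Myh7b with Adamts9 (0.973), Abra (0.963) and Pmpca (0.957), and Myh6 with Map1lc3a (0.985), Tyw5 (0.984) and Uqcr10 (0.983). They were the 3 highest of 13089 genes in TA and of 13031 in heart, over 8 and 7 points.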

How the data were processed

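RNA from TA muscle and heart was sequenced as paired 51-base reads. Per the labels and the study's methods, the authors trimmed reads with Trim Galore (0.6.10), quantified them with Salmon (1.10.3) on GRCm39 and summed transcripts with tximport; the annotation release is not given in the sources used here. They deposited TPM, which keeps no depth, so precision comes only from the spread between mice and the study's count-based test was not run. Identifiers were named from GENCODE M39 (56236 of 56980 found).

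Genes reaching 0.5 TPM in 3 or more mice were fitted as log2(TPM + 0.5) with limma 3.58.1 in R 4.3.3 (trend in the prior variance, Benjamini-Hochberg adjustment). The TA fit held 1 surrogate variable (5 rounds), the heart and vehicle tissue fits labelled sex, the other fits no covariate. Code was tested on simulated data. Shares were compared by exact permutation. The members, gene lists and tests were chosen with earlier results of these data known. Named genes are the members, listed genes that were called or had the 3 smallest p values, and the 3 genes with the highest r to each member. Coding sequences were aligned with edlib, since no protein table was at hand; Myl2 in TA and the fast troponins in heart were named after their values were seen. Some listed genes are not reported here.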

Additional observations from a re-analysis of the deposited data

Results flagged for a closer look

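In groups of 4 mice, the gap of the highest or lowest library to its neighbour was divided by the range of the group and compared with Dixon's 95% critical value. Of 66 sets of values (levels, shares and sums of the members) 9 exceeded it, where chance gives about 1 in 20 groups, and levels and shares of a gene are not independent. In vehicle TA, female replicate 4 stood apart for Myh3, with 42.9 TPM against 4.42 to 9.58 TPM in the other 3 and a share of 0.476% against at most 0.103%. Female replicate 2 of the same group stood apart for Myh7, with 24.5 TPM against 0.402 to 2.05 TPM and a share of 0.268% against at most 0.0228%. In vehicle heart the other such values were of skeletal members at the bottom of the scale: Myh4 at 0.0396 TPM (share 0.000717%) in replicate 2, Myh3 at 0.00528 TPM (share 8.89e-05%) in replicate 4 with 0 in the other 3, and the Myh8 share of 0.000678% in replicate 1. No cause of these values was tested. D + Q heart replicate 2, with 10.2 TPM of Myh4, is in a group of 3 and was not tested for this.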

How the results depend on the processing

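The number of mice, 3 or 4 a group, limits every comparison. None of the alternatives called a member in TA or heart, all 8 tissue calls held, and no member was called in the difference between tissues. In TA, labelled sex as covariate or males only turned the log2 fold change of Myh8 to 0.25 and of Myh7 to 0.88. Males only turned the differences in share of Myh1 (0.0340), Myh8 (0.0422), Myh7 (0.0196), Myh3 with Myh8 (0.176), Myh1 among the 3 fast chains (0.104) and the sum (39.6 TPM). As a log ratio, to a mean that takes in Myh6 and Myh7b, both low in TA, the Myh2 share in TA had -0.76 (exact permutation test, p = 0.0286). In heart, where Myh3 and Myh8 are near 0 TPM, log ratios turned Myh3 (-0.55) and Myh8 (-0.56), each with p = 0.0286 by the same exact test, and Myh7 (-0.22, p = 0.8). Among hearts with Xist, an alternative chosen after seeing the data, the difference in sum was 1299 TPM (exact permutation test, p = 0.2).

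Genes called in heart (17 higher, 34 lower) came to 0 and 0 without the filter, 2 and 11 without the trend, 3 and 22 with sex read from expression, 3 and 13 among hearts with Xist, and 11 higher with median-of-ratios scaling. Calls on the difference between tissues (8 and 3) came to 5 higher with a pseudocount of 1 and to 4 and 1 without the filter.

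Replicate numbers served only as names: deviations of mice sharing a number correlated at -0.122 on average in TA and 0.00349 in heart. The replicate block leaves out vehicle heart replicate 4, which has no partner, and its differences in share and sum equal those without that mouse. Heart calls came to 0 higher and 4 lower (0 and 5 without that mouse alone), the difference in Myh7 share to -0.480, in Myh6 share to 0.414 and in Myh7 among the cardiac pair to -0.468, and that in the sum to 1417 TPM (exact permutation test, p = 0.25, the smallest that 3 pairs allow).

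Leaving out 1 mouse at a time gave these ranges. Log2 fold changes in TA ran from -0.35 to 0.0147 for Myh1, -1.69 to 0.47 for Myh7 and -0.46 to 0.29 for Myh8, and in heart from -0.07 to 0.43 for Myh7b. Differences between tissues ran from -0.0485 to 1.00 for Myh3, -1.47 to 0.13 for Myh7 and -0.00275 to 0.38 for Myh7b. Differences in TA share ran from -3.74 to -1.72 for Myh2, -3.77 to -1.73 for Myh2 among the fast chains, -0.0129 to 0.127 for Myh3, -0.0887 to 0.121 for Myh3 with Myh8 and -0.0731 to 0.0146 for Myh7. Those in heart ran from -2.32 to 0.414 for Myh6, -0.480 to 2.25 for Myh7, -0.468 to 2.27 for Myh7 among the cardiac pair, -0.0571 to 0.00360 for Myh7b, -0.000150 to 0.0129 for Myh2, -2.2e-05 to 0.000328 for Myh3 and -0.000251 to 0.000331 for Myh8. The sum ran from -573 to 22.4 TPM in TA and 1186 to 1618 TPM in heart (exact permutation test, p from 0.0667 to 0.1, the smallest these sizes allow). Called genes ran from 0 to 1 in either direction in TA, 0 to 64 higher (64 without vehicle replicate 3) and 0 to 72 lower in heart, 4 to 9 and 1 to 7 for the difference between tissues, and 1617 to 2591 lower between tissues at D + Q. The cause of these shifts was not tested.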

Other observations

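Vehicle TA replicate 2, the library with the most Myh7, also had the highest TPM of Mybph, a binding protein of the thick filament, with 81.8 TPM against 12.6 to 40.0 TPM in the other 7 TA libraries. The slow troponin subunit Tnnt1 was 36.7 TPM there and 41.6 TPM in vehicle replicate 4, the other female library, against 6.65 to 17.8 TPM in the 6 male ones. Mymk, the membrane protein that fuses myoblasts, was highest in D + Q replicate 1 (17.8 TPM) and vehicle replicate 4 (15.2 TPM), which were among the 3 libraries with the most Myh3. These genes were picked after their values were seen, and no test was run on them.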
